A study of Mus musculus with 6 samples.

Results

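Ketone body metabolism was examined in mouse heart through Bdh1 and 6 genes that act with it, Bdh2, Oxct1, Acat1, Acat2, Aacs and Slc16a1. The members are the probe sets whose platform annotation gives only 1 of these symbols or a synonym, which found 15 of the 45101 probe sets in the deposited table. They cover 6 of the 7 genes, out of 13634 genes measured in all, and Acat2 was not analysed here. The set was selected on the fall of the Bdh1 signal in the comparison described here, so the Bdh1 values are a description and carry no test. The other members were chosen for their function, with earlier results of these data known.

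Whole hearts of 3 DNMTs-Tg mice (label numbers 1, 5 and 6) and 3 wild-type mice (label numbers 1, 4 and 6) were compared at 8 weeks of age, with 1 Affymetrix array per mouse. DNMTs-Tg mice carry transgenes for DNMT3A2 and DNMT3L in many somatic tissues and came from FVB-Tg(Ddx4-cre)1Dcas/J mothers and a flox father; DNMT3A2 is a de novo DNA methyltransferase and DNMT3L its inactive partner. The labels do not give the transgene promoter, or which alleles of that cross the wild-type mice carry. The study asked which heart genes lose expression when both proteins are present, and DNA methylation was not analysed here. Median log2 signals were 5.28 to 5.33 over the 6 arrays. The transgene Dnmt3l had log2 signals of 12.19 to 12.38 in DNMTs-Tg and 5.17 to 5.48 in wild-type hearts. Dnmt3a, the gene of DNMT3A2, had a smaller gap, with 9.50 to 9.95 in DNMTs-Tg hearts. It read 8.50, 8.37 and 9.12 in wild-type replicates 1, 4 and 6. All 12 cardiomyocyte markers examined were measured on every array, with mean log2 levels of 13.93 to 14.10 in DNMTs-Tg and 14.07 to 14.10 in wild-type hearts. The labels call wild-type replicate 6 male and the other 5 mice female, whereas Y-linked RNA (Eif2s3y) was high on every array except that of wild-type replicate 4, the only array with high Xist.

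Ketone bodies, mainly beta-hydroxybutyrate and acetoacetate, are made in liver mitochondria from fatty acids and burned by heart, muscle and brain. In the heart, beta-hydroxybutyrate enters through the monocarboxylate transporter MCT1, the product of Slc16a1, and BDH1 oxidises it to acetoacetate in the mitochondrial matrix. OXCT1 then transfers coenzyme A from succinyl-CoA to acetoacetate, and the thiolase ACAT1 splits acetoacetyl-CoA into acetyl-CoA for the citric acid cycle. ACAT2 is a cytosolic thiolase of sterol synthesis, AACS activates acetoacetate in the cytosol for lipid synthesis, and BDH2 is a cytosolic dehydrogenase.

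Bdh1 was the only member whose probe sets were at a low signal in all DNMTs-Tg hearts and at a high signal in all wild-type hearts. Its brighter probe set, 1452257_at, read 3.56, 4.20 and 4.62 (log2 signal) in DNMTs-Tg replicates 1, 5 and 6. In wild-type replicates 1, 4 and 6 it read 11.73, 11.87 and 9.71. The groups did not overlap, and 5.09 log2 units separated the highest DNMTs-Tg array from the lowest wild-type array. The DNMTs-Tg mean was 4.13 ± 0.54 (SD, n = 3) and the wild-type mean 11.10 ± 1.20 (SD, n = 3).

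The second Bdh1 probe set, 1426959_at, showed the same separation at a lower signal. It read 2.84, 2.85 and 2.93 (log2 signal) in DNMTs-Tg replicates 1, 5 and 6, and 9.45, 9.41 and 7.61 in wild-type replicates 1, 4 and 6. Means were 2.87 ± 0.05 (SD, n = 3) and 8.82 ± 1.05 (SD, n = 3). The differences in measured signal (log2, DNMTs-Tg minus wild-type) were -6.97 at 1452257_at and -5.95 at 1426959_at. Over the 6 arrays the Pearson correlation between both probe sets was 0.997, which mostly reflects the gap between the groups.

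In DNMTs-Tg hearts both Bdh1 probe sets lay in the dim part of each array. On replicates 1, 5 and 6 the share of all probe sets that were dimmer was 20.2%, 30.9% and 38.3% for 1452257_at and 6.6%, 5.4% and 7.2% for 1426959_at. In wild-type hearts that share was 91.9% to 98.2% for 1452257_at and 76.1% to 90.4% for 1426959_at. Because no detection calls were used, the DNMTs-Tg values are treated as bounds. With the 40th percentile of each array as the floor, Bdh1 was at least 85.3-fold lower by 1452257_at and at least 17.6-fold lower by 1426959_at. The measured ratios were 126-fold and 61.8-fold. The bounds depend on the wild-type signal above that floor, which was higher for 1452257_at. In whole-heart RNA, fewer cells that express a gene and less of its RNA per cell cannot be told apart. Both probe sets passed the filter on dim signals (at least 3 of 6 arrays above the 40th percentile), which kept 27319 probe sets, only through the wild-type arrays.

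**Figure D1:**
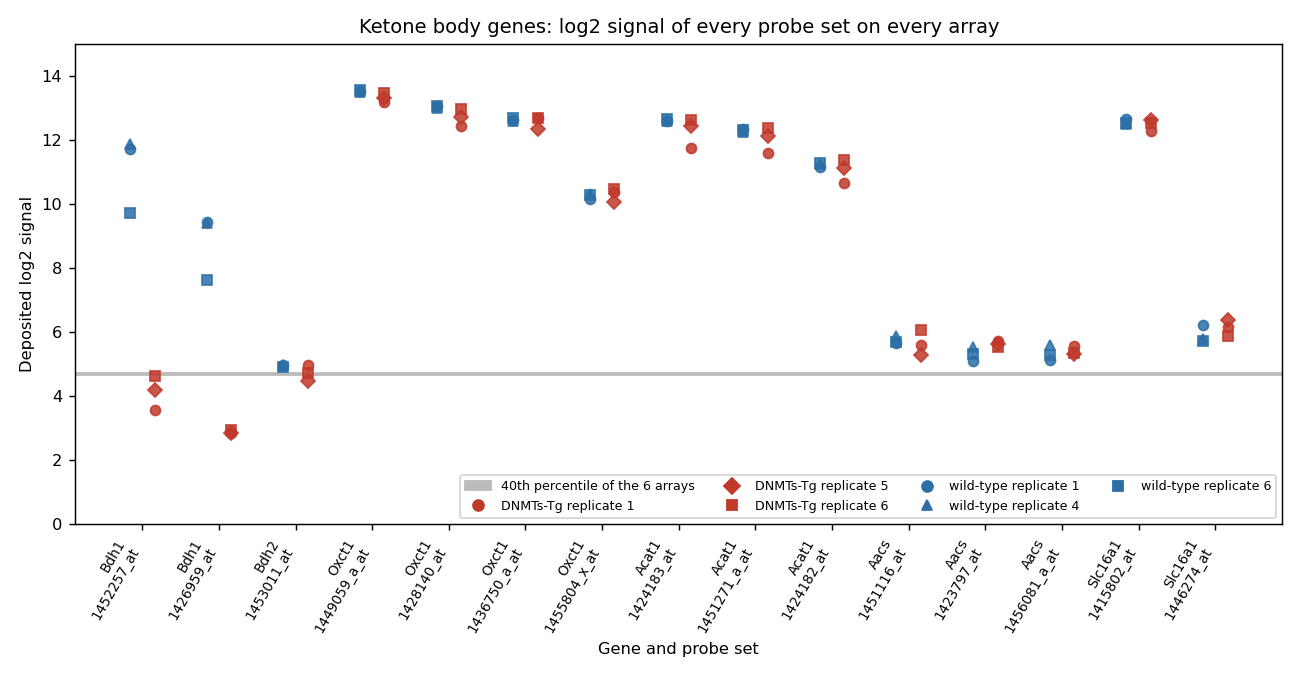
Deposited log2 signal (y axis) of the 15 probe sets of the ketone body genes (x axis) on each of the 6 arrays, with wild-type arrays in blue, DNMTs-Tg arrays in red, symbols for label numbers and the 40th percentiles of the arrays in grey. The Bdh1 probe sets lie at 2.84 to 4.62 in DNMTs-Tg and 7.61 to 11.87 in wild-type hearts, while the other probe sets show their groups close together.

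Bdh1 was not uniform among the wild-type hearts. Wild-type replicates 1 and 4 differed by 0.14 (log2) at 1452257_at and by 0.04 at 1426959_at. Wild-type replicate 6 stood 4.23-fold below their mean at the first (log2 difference -2.08) and 3.52-fold below it at the second (-1.82). Of the 27319 kept probe sets, 8 lay at least as far below wild-type replicates 1 and 4 in wild-type replicate 6 as 1452257_at, itself included, and 14 as far as 1426959_at. This measurement was chosen after the values were seen. Replicate 6 is the mouse labelled male. However, the Y-linked RNA Eif2s3y read 9.50, 3.32 and 9.51 (log2 signal) in wild-type replicates 1, 4 and 6, so replicates 1 and 6 were alike in it. Wild-type replicate 6 also had the highest Dnmt3a signal of the wild-type arrays (9.12, log2). The part of sex or of Dnmt3a in the lower Bdh1 signal of replicate 6 was not tested. Without wild-type replicate 6 the bounds were 138-fold and 26.7-fold, and against wild-type replicate 6 alone they were 32.6-fold and 7.58-fold. With any 1 of the 6 arrays left out, the bound ranged from 65.5 to 138 for 1452257_at and from 14.1 to 26.7 for 1426959_at.

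The Bdh1 gene lies on chromosome 16 (chr16:31422297-31458901, plus strand, GRCm38.p6), and RefSeq gives it 2 separate start sites, the second 6456 bases into the gene. Since the study tested DNA methyltransferases, the sequences around both starts are shown, from 250 bases before to 50 bases after each start, with every CG dinucleotide, the site of DNA methylation in mammals, in capitals. The first window is chr16:31422047-31422346 and the second chr16:31428503-31428802, both on the plus strand and credited to RefSeq with the build GRCm38.p6.
Bdh1 first start: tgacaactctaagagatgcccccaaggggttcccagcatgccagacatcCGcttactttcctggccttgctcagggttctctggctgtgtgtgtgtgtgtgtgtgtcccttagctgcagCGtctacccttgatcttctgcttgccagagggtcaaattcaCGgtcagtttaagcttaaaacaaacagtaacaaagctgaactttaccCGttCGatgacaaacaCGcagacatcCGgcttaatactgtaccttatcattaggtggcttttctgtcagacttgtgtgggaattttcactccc
Bdh1 second start: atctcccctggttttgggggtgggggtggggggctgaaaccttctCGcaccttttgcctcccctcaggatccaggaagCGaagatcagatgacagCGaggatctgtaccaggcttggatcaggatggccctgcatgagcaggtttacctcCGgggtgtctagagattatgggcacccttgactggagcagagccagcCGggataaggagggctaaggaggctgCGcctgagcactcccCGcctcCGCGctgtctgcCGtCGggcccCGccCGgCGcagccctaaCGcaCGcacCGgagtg

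The first window holds 7 CG in 300 bases and the second 17. CG reads the same on both strands, and 94.6% of the 32851 promoters of the same length in the RefSeq table hold at least 1. The median promoter holds 7, and the quartiles are 3 and 20, so both Bdh1 windows lie between the quartiles. At least as many CG as the first window were found in 52.1% of promoters, and at least as many as the second in 31.4%. Slc16a1 had 42 CG and Aacs 30, against 11 for Oxct1, 10 for Acat2 and 6 for Bdh2. Slc16a1 and Aacs thus had the promoters richest in CG among the 6 members in the table. Which start the heart uses and whether these sites were methylated was not tested.

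**Figure D2:**
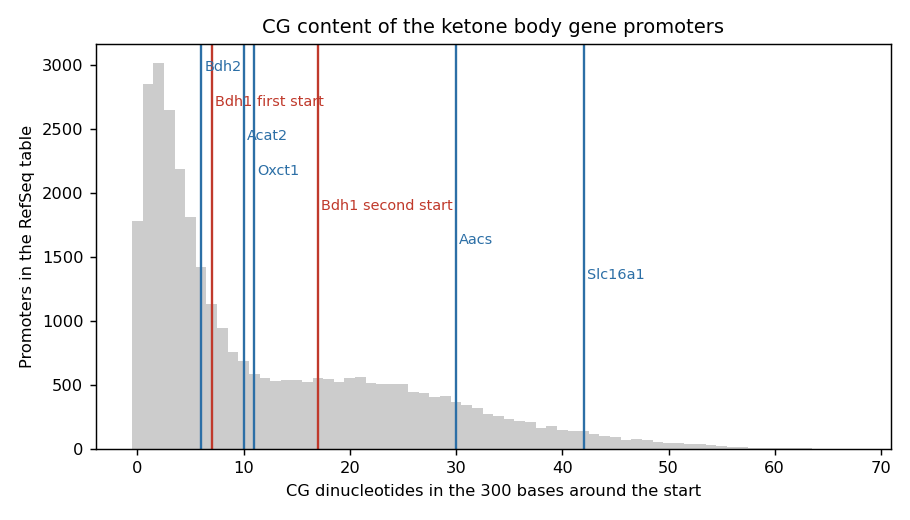
Number of CG dinucleotides in the 300 bases around each start (x axis) for all 32851 promoters in the RefSeq table (grey bars, number of promoters on the y axis), with lines for the Bdh1 starts in red and the other ketone body genes in blue. The Bdh1 windows stand at 7 and 17, and the Aacs and Slc16a1 windows lie furthest to the right at 30 and 42.

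No gene measured on either side of Bdh1 passed the test. The 5 nearest measured genes on each side, over 1349 kb, held 0 genes past the threshold of limma (adjusted p of 0.05), with 2 of 10 at an unadjusted p under 0.05. Over all 13634 genes, each represented by its brightest kept probe set, 4.82% passed and 26.0% had an unadjusted p under 0.05. The differences ran from -1.00 to 2.13 (log2).

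The difference of -1.00 belonged to Gm15743, a long noncoding RNA gene inside Bdh1 (chr16:31427876-31429776). It is annotated on the opposite strand and spans the second Bdh1 start. Its probe set 1446154_at read 5.27, 5.60 and 5.64 (log2 signal) in DNMTs-Tg replicates 1, 5 and 6, and 7.11, 6.51 and 5.89 in wild-type replicates 1, 4 and 6. The groups did not overlap, wild-type replicate 6 was again the lowest wild-type array, and the gene did not pass (limma, -1.00 ± 0.29, SE, adjusted p = 0.0976). Whether this probe set reads only the strand of Gm15743 was not tested.

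Apod, an apolipoprotein gene 107.5 kb before Bdh1, read 11.11, 8.89 and 7.94 (log2 signal) in DNMTs-Tg replicates 1, 5 and 6, whereas the wild-type hearts read 6.94 to 7.35. Its difference of 2.13 ± 0.70 (SE) did not pass (limma, adjusted p = 0.128). Without DNMTs-Tg replicate 1 it passed at 1.23, and without DNMTs-Tg replicate 6 at 2.81. Dlg1, a membrane scaffold gene 204.5 kb after Bdh1, differed by -0.24 (adjusted p = 0.279), and Ppp1r2, a phosphatase inhibitor gene, by -0.08 (adjusted p = 0.635). The differences were -0.03 for Fam43a, 0.15 for Acap2, 0.04 for Meltf, -0.25 for Pigz and -0.24 for 0610012G03Rik, and Xxylt1 stood at 0.00.

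**Figure D3:**
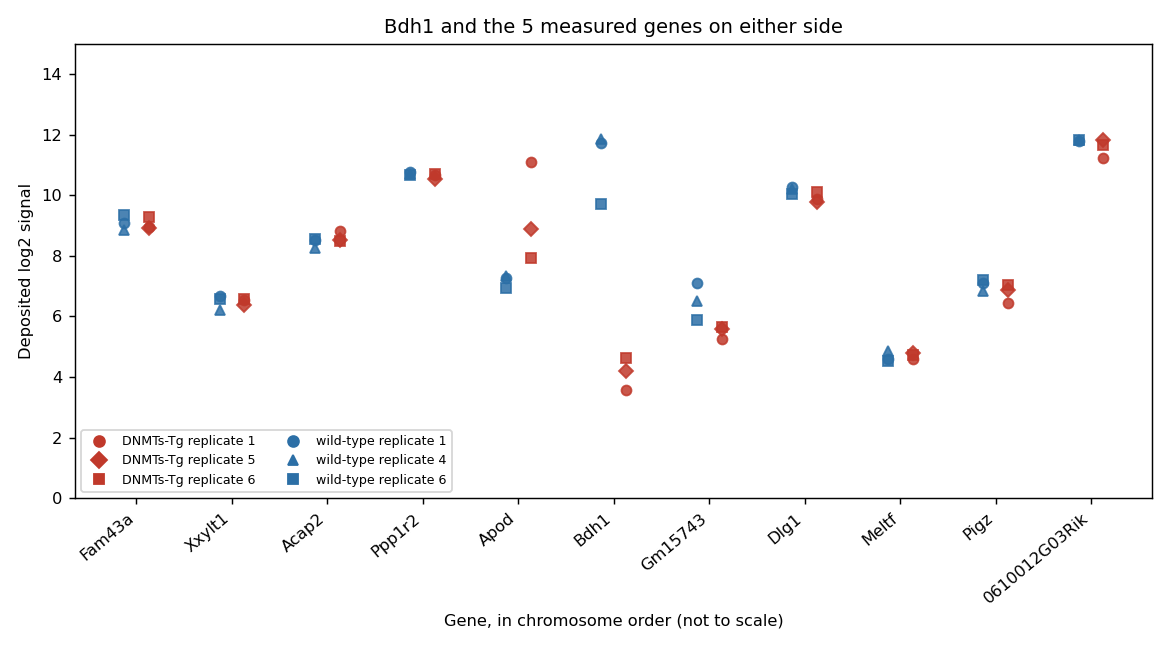
Deposited log2 signal (y axis) of Bdh1 and the 5 measured genes on either side of it, in chromosome order (x axis, not to scale), on the 3 wild-type (blue) and 3 DNMTs-Tg (red) arrays. Bdh1, on whose fall the set was selected, has the widest gap between groups. Gm15743 and Apod have smaller gaps, and the groups of the other 8 genes overlap.

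No other member passed the test. Of the 13 remaining probe sets 0 passed (limma, adjusted p of 0.207 to 0.831), and 1 had an unadjusted p under 0.05. Over all kept probe sets 4.13% passed, 2.36% as lower and 1.77% as higher, and 24.2% had an unadjusted p under 0.05. With array weights 6 of the 13 passed, as did 9480 of all kept probe sets. The 13 differences ran from -0.35 to 0.30 (log2) with a median of -0.11, against 0.006 over all kept probe sets, and 9 were below 0. Groups did not overlap for 3 of the 13, against 32.5% of all kept probe sets. The 95% intervals of the 13 differences reached from -0.84 to 0.65, so falls to 0.559-fold and rises to 1.57-fold lie within them.

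**Figure D4:**
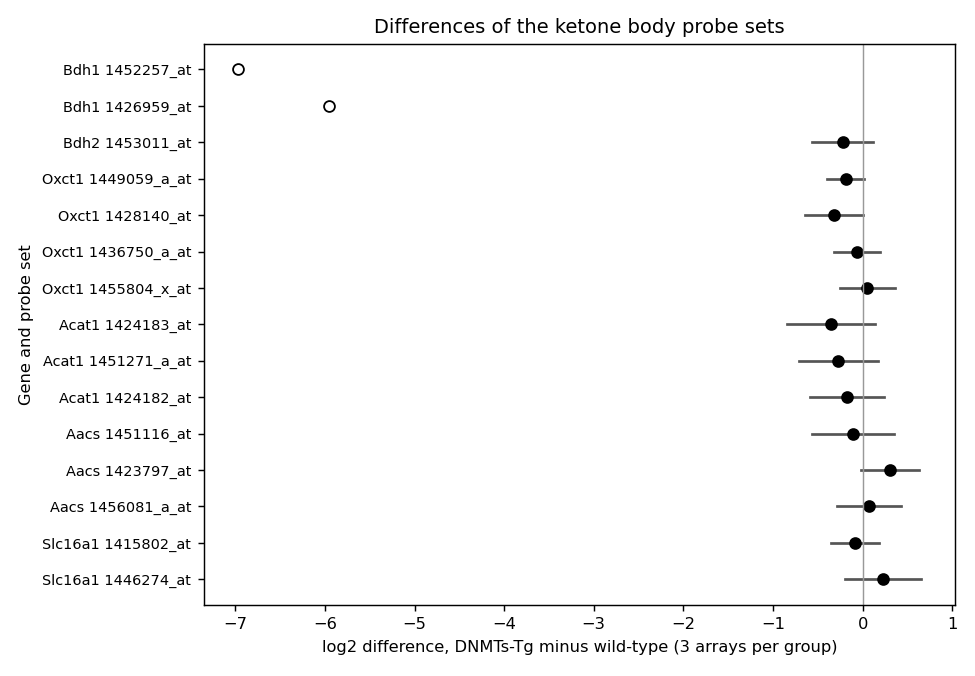
Log2 difference between DNMTs-Tg and wild-type hearts (x axis) for each of the 15 member probe sets (y axis), with lines for the 95% limma intervals of the 13 probe sets other than Bdh1 (3 arrays per group). The open Bdh1 points stand at -6.97 and -5.95 with no interval because they chose the set, and the others lie between -0.35 and 0.30.

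Slc16a1, the uptake step, was bright in every heart. Its probe set 1415802_at read 12.27, 12.64 and 12.53 (log2 signal) in DNMTs-Tg replicates 1, 5 and 6 and 12.65, 12.51 and 12.54 in wild-type replicates 1, 4 and 6. The groups overlapped, and the difference was -0.08 ± 0.11 (SE, 95% interval -0.35 to 0.18, limma adjusted p = 0.683). The dimmer probe set 1446274_at read 5.73 to 6.37 over the 6 arrays and differed by 0.23 (adjusted p = 0.480).

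Oxct1, the enzyme after BDH1 in ketone oxidation, was represented by 4 probe sets. The brightest, 1449059_a_at, read 13.20, 13.32 and 13.47 (log2 signal) in DNMTs-Tg replicates 1, 5 and 6 and 13.52, 13.50 and 13.56 in wild-type replicates 1, 4 and 6. All DNMTs-Tg values lay below all wild-type values, but the difference was small and did not pass (-0.19 ± 0.09, SE, 95% interval -0.40 to 0.01, limma adjusted p = 0.230). Probe set 1428140_at read 12.43, 12.73 and 12.98 against 13.05, 13.00 and 13.05. Its groups did not overlap either, and its difference of -0.32 ± 0.14 (SE) had an unadjusted p of 0.0499 and an adjusted p of 0.207. Without DNMTs-Tg replicate 6 it passed (-0.45, limma adjusted p = 0.0482), and over all alternatives its adjusted p ranged from 0.00764 with array weights to 0.565 with a replicate block.

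The remaining Oxct1 probe sets had overlapping groups. Probe set 1436750_a_at read 12.35 to 12.69 in DNMTs-Tg and 12.60 to 12.68 in wild-type hearts (difference -0.06, adjusted p = 0.761). Probe set 1455804_x_at, whose suffix marks probes that can match other sequences, read 10.07 to 10.48 and 10.15 to 10.30 (difference 0.05, adjusted p = 0.831). The Oxct1 probe sets therefore differed in sign, and all had intervals within -0.64 and 0.36.

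Acat1, which completes the pathway to acetyl-CoA, had 3 probe sets that shared a pattern. The brightest, 1424183_at, read 11.74, 12.43 and 12.61 (log2 signal) in DNMTs-Tg replicates 1, 5 and 6 and 12.59, 12.58 and 12.66 in wild-type replicates 1, 4 and 6. DNMTs-Tg replicate 1 was the low array, and replicate 6 lay within the wild-type range. The same order of DNMTs-Tg arrays was seen at 1451271_a_at (11.59, 12.12 and 12.38) and 1424182_at (10.67, 11.11 and 11.39). Differences were -0.35 ± 0.21, -0.27 ± 0.19 and -0.18 ± 0.18 (SE), and none passed (limma, adjusted p = 0.344, 0.417 and 0.573). Without DNMTs-Tg replicate 1 they were -0.09, -0.05 and 0.02.

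DNMTs-Tg replicate 1 stood apart in other measures as well. Macrophage markers were 1.23 (mean log2 level relative to the wild-type mean) above wild-type on that array, against -0.28 and -0.19 on DNMTs-Tg replicates 5 and 6. Fibroblast markers stood at 1.25, 0.28 and 0.19 on the same arrays. Their mean log2 levels ranged from 8.45 to 9.96 in DNMTs-Tg and 8.60 to 8.89 in wild-type hearts for 9 macrophage markers, and from 10.60 to 11.66 and 10.21 to 10.68 for 9 fibroblast markers. All of these markers were measured and 0 passed by limma, with 0 and 4 at an unadjusted p under 0.05. The 3' Gapdh control probe set exceeded the 5' one by 0.75, 0.53 and 0.71 (log2) on the DNMTs-Tg arrays 1, 5 and 6, and by 0.40 to 0.50 on the wild-type arrays. For Actb the same difference was 1.05, 0.91 and 1.40 on the DNMTs-Tg arrays and 1.09 to 1.25 on the wild-type arrays, so DNMTs-Tg replicates 1 and 5 lay below all wild-type arrays by this measure and above them by Gapdh. Of the other cell type markers, Vwf rose among 8 endothelial genes (1.39, limma adjusted p = 0.0196, called in 3 of 6 fits with 1 array left out). The median of the 8 was 0.06, with 5 above 0 and 3 below. By the same test 0 of 7 smooth muscle, 0 of 1 adipocyte and 0 of 4 skeletal muscle genes passed (1, 0 and 1 at an unadjusted p under 0.05). Acta1, in the skeletal muscle list, read 14.00 to 14.42 (log2 signal) in DNMTs-Tg and 10.54 to 12.99 in wild-type hearts. Its difference of 2.19 ± 0.57 (SE) did not pass (limma, adjusted p = 0.0771). The other 3 tested genes of that list differed below 0, and the list median was -0.01. Adipoq, in the adipocyte list, did not pass the filter and read 2.96 to 3.54 (log2 signal) in DNMTs-Tg and 4.00 to 5.60 in wild-type hearts. Cidec and Lep, in the same list, did not pass the filter either, and their groups overlapped. The part of these in the Acat1 and Oxct1 values was not tested. On the other DNMTs-Tg arrays Bdh1 stood at 4.20 and 4.62 (log2 signal of 1452257_at).

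Aacs and Bdh2, the cytosolic enzymes, gave dim signals. The Aacs probe set 1423797_at read 5.71, 5.61 and 5.54 (log2 signal) in DNMTs-Tg replicates 1, 5 and 6 and 5.10, 5.53 and 5.31 in wild-type replicates 1, 4 and 6. These groups did not overlap by a narrow margin, and the difference of 0.30 ± 0.14 (SE) did not pass (limma, adjusted p = 0.230). The other Aacs probe sets overlapped, with differences of -0.11 at 1451116_at (adjusted p = 0.775) and 0.07 at 1456081_a_at (adjusted p = 0.820), so the 3 differed in sign.

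Bdh2 had a single probe set close to the 40th percentile of the arrays. It read 4.98, 4.47 and 4.73 (log2 signal) in DNMTs-Tg replicates 1, 5 and 6 and 4.97, 4.97 and 4.90 in wild-type replicates 1, 4 and 6. The groups overlapped, and the difference was -0.22 ± 0.14 (SE, 95% interval -0.56 to 0.12, limma adjusted p = 0.386). The interval leaves room for a rise of 0.12 at most.

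Around these members, 3 genes from 6 lists of related functions passed the threshold. Each is given here with its list and the number of genes tested there. Over all genes 4.82% passed in either direction. No set test was run, so the count of 3 is a description and not a result about the lists. The transport and signalling list held 2 that rose, Slc16a6 and Emb, out of 5 tested, with a median difference of 0.02 against 0.0055 over all genes. Over all genes 2.03% rose and 2.79% fell. Slc16a6, a monocarboxylate transporter gene linked to ketone export from the liver, read 8.98, 8.48 and 7.57 (log2 signal) in DNMTs-Tg replicates 1, 5 and 6 and 6.53, 6.61 and 6.91 in wild-type replicates 1, 4 and 6. It rose 3.16-fold (1.66 ± 0.33, log2, SE, limma adjusted p = 0.0406), and was called in 2 of 6 fits with 1 array left out, those without DNMTs-Tg replicate 1 or 6.

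Emb encodes embigin, a membrane partner of monocarboxylate transporters. It read 6.61, 6.11 and 6.09 (log2 signal) in DNMTs-Tg replicates 1, 5 and 6 and 5.59, 5.31 and 5.42 in wild-type replicates 1, 4 and 6. It rose 1.78-fold (0.83 ± 0.17, log2, SE, limma adjusted p = 0.0437), and was called in 2 of those 6 fits, again without DNMTs-Tg replicate 1 or 6 and not with dim probe sets included in the adjustment. Bsg, which encodes basigin, the main partner of MCT1, differed by -0.30 (adjusted p = 0.189). Slc16a7, the gene of the transporter MCT2, differed by 0.02 (adjusted p = 0.977), and Sirt3, a mitochondrial deacetylase gene, by -0.09 (adjusted p = 0.763). Slc16a3 and Hcar2, a transporter and a receptor for beta-hydroxybutyrate, did not pass the filter and read 4.09 to 4.60 and 4.33 to 4.80 (log2 signal) over the 6 arrays.

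In the list of ketone synthesis genes and paralogs, 2 of 6 genes were tested and 0 passed by limma, with 1 at an unadjusted p under 0.05. Hmgcll1 differed by -0.35 ± 0.15 (SE, adjusted p = 0.200), and Oxct2a, the testis paralog of Oxct1, by -0.19 ± 0.16 (adjusted p = 0.491). The other 4 genes were not analysed here. Hepatocyte markers, which would come with liver RNA, had mean log2 levels of 5.42 to 5.56 in DNMTs-Tg and 5.63 to 5.65 in wild-type hearts over 4 tested markers, of which Cyp2e1 fell (-1.09 ± 0.13, SE, limma adjusted p = 0.00838). Ttr, in the same list, differed the other way (0.53 ± 0.13, SE, adjusted p = 0.071), and these 2 of the 4 had an unadjusted p under 0.05. Cyp2e1 was called in 4 of 6 fits with 1 array left out, all but those without wild-type replicate 1 or 4. It read 4.59 to 4.94 (log2 signal) in DNMTs-Tg and 5.77 to 5.96 in wild-type hearts. The DNMTs-Tg signals lay near the 40th percentile of the arrays, so the size of the fall is uncertain. Alb and Fgb, defining hepatocyte genes, did not pass the filter.

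Among enzymes that share substrates with OXCT1 and ACAT1 in the mitochondrion, 11 were tested. Of these, 10 differed below 0 with a median of -0.29, and 0 passed by limma (4 at an unadjusted p under 0.05). Suclg1 and Sucla2, subunits of the succinyl-CoA synthetases that recycle the succinate left by OXCT1, differed by -0.47 ± 0.14 (SE, adjusted p = 0.107) and -0.23 ± 0.08 (adjusted p = 0.143). The mean of this list relative to wild-type was -0.60, -0.16 and -0.04 in DNMTs-Tg replicates 1, 5 and 6, the order of arrays seen for Acat1.

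Bdh1 belongs to the short-chain dehydrogenase family, and 14 of 16 relatives tested differed below 0, with a median of -0.52. Their mean relative to wild-type was -0.78, -0.43 and -0.29 in DNMTs-Tg replicates 1, 5 and 6, in the same order as Acat1. Of the 16, 1 fell and 0 rose past the threshold (11 at an unadjusted p under 0.05, against 26.0% of all genes). The gene that fell was Dhrs4, which encodes a peroxisomal carbonyl reductase. It read 9.63, 9.67 and 10.02 (log2 signal) in DNMTs-Tg replicates 1, 5 and 6 and 10.57, 10.73 and 10.48 in wild-type replicates 1, 4 and 6. It fell to 0.566-fold (-0.82 ± 0.14, log2, SE, limma adjusted p = 0.0247), and was called in 2 of 6 fits with 1 array left out, those without DNMTs-Tg replicate 1 or 6. The lowest difference among the 16 relatives was -1.87.

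Genes of sterol synthesis, the pathway of ACAT2, and genes of the fasting response held 0 members past the threshold by limma. Of 17 sterol genes tested 13 differed above 0, with a median of 0.20 and 3 at an unadjusted p under 0.05. The mean of the list relative to wild-type was 0.50, 0.05 and 0.22 in DNMTs-Tg replicates 1, 5 and 6, highest on the array that stood apart. Sc5d, a sterol desaturase gene, differed by 0.39 ± 0.12 (SE, adjusted p = 0.115) and Insig1, a sterol sensor gene, by 0.65 ± 0.24 (adjusted p = 0.166). Of 9 fasting regulators and targets, 6 differed above 0 with a median of 0.03, and 2 had an unadjusted p under 0.05. Fgf21, a fasting hormone gene, passed the filter only through the 3 DNMTs-Tg arrays and is 1 of those 2, so its values are given with nothing read from them (4.73 to 5.17 in DNMTs-Tg and 4.31 to 4.62 in wild-type hearts, log2 signal). Ppara, the receptor gene that drives ketogenesis in liver, differed by -0.53 ± 0.22 (adjusted p = 0.205).

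**Figure D5:**
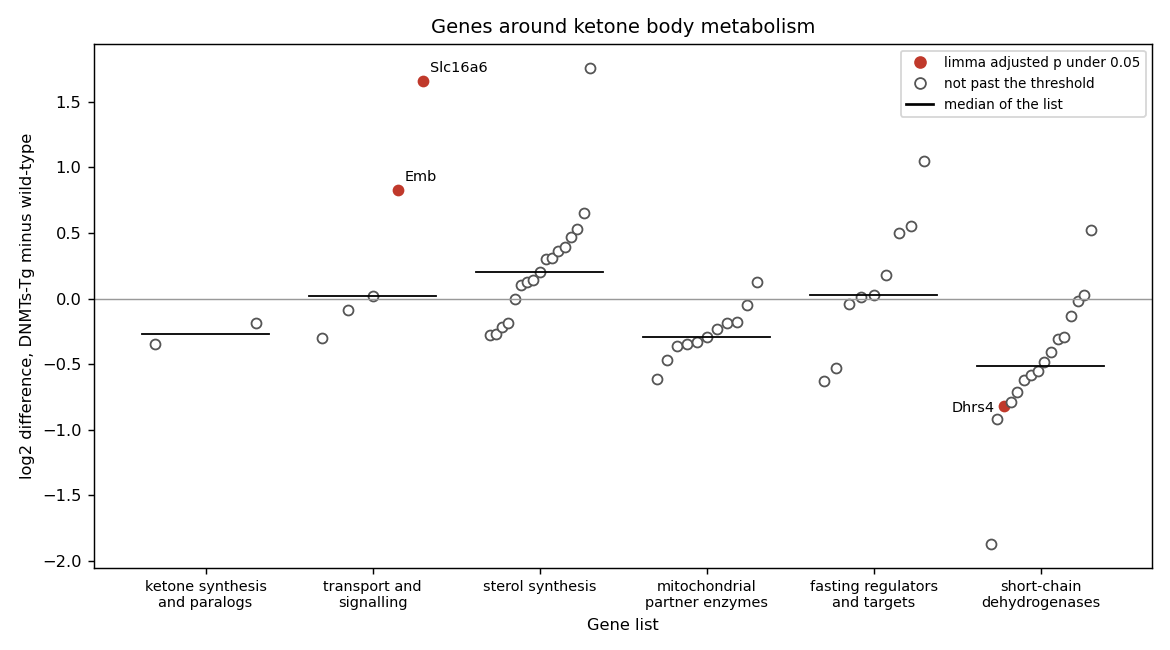
Log2 difference between DNMTs-Tg and wild-type hearts (y axis) for each tested gene of 6 lists around ketone body metabolism (x axis), with genes past the limma threshold filled in red and black lines at the list medians. Slc16a6 and Emb stand above 0 and Dhrs4 below it. The Bdh1 difference of -6.97, on which the set was selected, lies outside the axis.

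The genes whose pattern over the 6 arrays was most like that of Bdh1 (1452257_at) were Acsl6, Pum2, Bsdc1, Pkdrej and Mrps21, with Pearson r from 0.9935 to 0.9990 among 12513 genes compared. The 6 arrays share the gap between groups, and 652 genes had r above 0.9, so this is a description with no test. Acsl6, an acyl-CoA synthetase gene, read 5.17, 5.39 and 5.55 (log2 signal) in DNMTs-Tg replicates 1, 5 and 6 and 8.20, 8.09 and 7.29 in wild-type replicates 1, 4 and 6. Like Bdh1 it was lowest among wild-type arrays in replicate 6, with a difference of -0.86 from the mean of the other wild-type arrays. The genes were chosen by correlation over these same arrays, so a lower signal in replicate 6 adds no support. Pkdrej, at 4.15 to 4.43 in DNMTs-Tg and 5.29 to 5.63 in wild-type hearts, passed the filter only through the 3 wild-type arrays. It differed by -0.29 in wild-type replicate 6 by the same measure. In Mrps21, Pum2 and Bsdc1 that difference was -0.06, -0.11 and -0.05, and their group differences were -0.41, -0.29 and -0.22.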

How the data were processed

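Total heart RNA was labelled with biotin and hybridised to Affymetrix arrays, per the labels' protocols. The table deposited by the authors holds a value for each probe set on each array, read here as a log2 signal since all lie between 2.06 and 14.74 with nearly equal array medians. How the authors corrected background and normalized is not stated in the sources used here. Values were analysed as deposited. Probe sets with at least 3 of 6 arrays above the 40th percentile of their array were kept (27319), and groups were compared with limma 3.58.1 in R 4.3.3 (lmFit, eBayes with trend), 2-sided, with Benjamini-Hochberg adjustment over all kept probe sets and a threshold of 0.05. Genes in lists are their brightest kept probe set. Platform symbols were updated through gene identifiers to GRCm38.p6 (34741 of 34945 probe sets). RefSeq promoters matched 6 of the 7 members.

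The labels give 1 mouse per array, and p-values measure the spread between these arrays, whose number limits the precision. Members and lists were chosen with earlier results of these data known. Named were all members, up to 6 genes past the threshold in each list (otherwise the 2 with the smallest p), the 5 measured genes on either side of Bdh1 and the 5 genes most correlated with it (clone names and sex-linked genes left out). Further genes of the transport list and of the cell type markers are also named. The fit was tested on simulated data. The alternatives were other normalizations, filters and variance models, a replicate block, weighted arrays, a laxer threshold and each array left out.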

Additional observations from a re-analysis of the deposited data

How the results depend on the processing

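The Bdh1 difference of -6.97 (1452257_at) lay between -7.67 and -6.59 with 1 array left out, -6.63 with the label number as a replicate block and -7.07 with array weights. Kept probe sets past the threshold numbered 1129, against 735 with the brightest probe set per gene, 9480 with array weights (which ran from 0.207 for DNMTs-Tg replicate 1 to 7.02 for replicate 5), 2 with the replicate block, 2800 at a threshold of 0.10 and 167 to 2749 with 1 array left out (174 and 2749 without DNMTs-Tg replicates 5 and 6, and 167, 218 and 268 without wild-type replicates 1, 4 and 6). Over all kept probe sets, arrays numbered 1 and arrays numbered 6 did not deviate together (r = -0.05 and -0.08). Arrays of unlike number had r from -0.08 to 0.11. A pairing that affects only some genes was not tested. Of the 13 member probe sets other than Bdh1, 0 were past it, against 6 with array weights, 0 with the replicate block and 0 to 1 with 1 array left out, the 1 being in the fit that lacks DNMTs-Tg replicate 6. Member counts that include the Bdh1 probe sets were 2, against 1 with the brightest probe set per gene. They were 8 with array weights, 0 with the replicate block and 2 to 3 with 1 array left out. The Bdh1 probe sets chose the set and passed the filter only through the wild-type arrays. These counts therefore give no test of Bdh1, and nothing is read from them about it. The brightest probe set leaves 1 for each gene. In the replicate block, numbers 4 and 5 occur on 1 array each, so only arrays numbered 1 and 6 inform the group difference. For the other settings the cause was not tested. Genes past it in the 6 lists numbered 3, against 23 with array weights, 0 with the replicate block, 7 at a threshold of 0.10 and 0 to 10 with 1 array left out (5 and 10 without DNMTs-Tg replicates 1 and 6, and 0 without any other). Neighbours of Bdh1 past it numbered 0, against 3, 0, 1 and 0 to 1 (1 without DNMTs-Tg replicate 1 or 6) in the same order. Small differences turned sign as follows. With array weights Oxct1 1455804_x_at stood at -0.13, Slc16a1 1415802_at at 0.04 and Xxylt1 at -0.13. With the replicate block Oxct1 1436750_a_at stood at 0.03, Aacs 1451116_at at 0.14 and Xxylt1 at -0.07, and with quantile normalization Xxylt1 at -0.03. With 1 array left out, the ranges crossed 0 for Acat1 1424182_at (-0.35 to 0.02), Aacs 1456081_a_at (-0.04 to 0.20) and 1451116_at (-0.31 to 0.07), Slc16a1 1415802_at (-0.16 to 0.02), Oxct1 1436750_a_at (-0.12 to 0.05) and 1455804_x_at (-0.03 to 0.17), Fam43a (-0.15 to 0.10), Meltf (-0.02 to 0.14) and Xxylt1 (-0.13 to 0.09).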
